A study of Mus musculus with 12 samples.

Results

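*Slc4a1*, *Kel*, *Ank1* and *Add2* code for proteins of the red cell membrane and of the skeleton beneath it. Their expression in yolk sacs lacking *Prdm6* was followed through every probe that the array's annotation assigns to them. These are 8 of the 20794 probes on the array, namely 1 for *Slc4a1*, 1 for *Kel*, 4 for *Ank1* and 2 for *Add2*, and each was taken separately. The 4 genes were chosen because probes of theirs were lower in del/del than in wild type yolk sacs on these same arrays, so their log2 ratios are given as a description with no test.

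Yolk sacs of 6 embryos homozygous for the del allele of *Prdm6* (del/del) were collected at E10.5, and their RNA was hybridized on 12 cDNA microarrays with 2 channels, each against the same wild type RNA pooled from 6 yolk sacs. In the del allele, exon 3 of *Prdm6* had been removed in the germ line by a CMV-Cre deleter strain, so all cells of the embryo and its yolk sac carry the deletion, and the wild type animals were littermates without it. The del/del RNA was labelled with Cy5 on 5 arrays and with Cy3 on 5 others, whereas for replicates 8 and 9 the labels give 1 dye for either channel. The study prepared a dye-flip pair of arrays for each yolk sac, but the labels do not say which arrays belong together. The 12 arrays were therefore treated as independent, and the limma p-values of the mean ratio are smaller than they should be. The p-values of the dye term rest on the same assumption. The pool counts as 1 control sample, in which the spread among wild type yolk sacs is not seen. A value is the log2 ratio of del/del over wild type, -1 meaning that the signal was reduced to 50% of the pool. Between 20011 and 20501 probes had a value on an array, and the array medians lay between -0.06 and 0.05. Without spot intensities, neither the level of a transcript nor the tissue's own markers can be read from these values. Their precision is limited by the 6 del/del yolk sacs and the single pool. *Prdm6* was not analysed here.

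The membrane of a red cell is held in shape by a meshwork of spectrin and short actin filaments. Band 3, the anion exchanger encoded by *Slc4a1*, exchanges chloride for bicarbonate and is the main anchor of that meshwork. Ankyrin 1, encoded by *Ank1*, ties band 3 to beta-spectrin, and beta-adducin, encoded by *Add2*, caps the actin filaments and joins them to spectrin. *Kel* codes for the Kell glycoprotein, an endopeptidase of the membrane that carries a blood group in humans. At E10.5 the red cells of the mouse are mostly primitive erythroid cells born in the blood islands of the yolk sac, which circulate through its vessels. The arrays measured whole yolk sacs, in which fewer red cells and less RNA per red cell cannot be told apart.

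The sequence before the start of transcription is shown for *Kel* and *Add2*, the 2 of the 4 genes with an entry in the promoter table used (RefSeq, GRCm38.p6), because both genes had a lower mean ratio and GATA factors, the zinc finger regulators of red cell genes, bind short motifs of known letters. Each line holds the 250 bases before the start, 5′ to 3′ on the strand of the gene, and capitals mark matches on either strand to AGATAA or TGATAA and to AGATAG or TGATAG. *Kel* is read from chr6:41704326-41704575 on the minus strand and *Add2* from chr6:86028431-86028680 on the plus strand. Distances are counted from the start at the end of each stretch. The annotated *Kel* gene reaches to chr6:41704334, so the last bases shown, with the CACCC named below, lie inside it.
Kel: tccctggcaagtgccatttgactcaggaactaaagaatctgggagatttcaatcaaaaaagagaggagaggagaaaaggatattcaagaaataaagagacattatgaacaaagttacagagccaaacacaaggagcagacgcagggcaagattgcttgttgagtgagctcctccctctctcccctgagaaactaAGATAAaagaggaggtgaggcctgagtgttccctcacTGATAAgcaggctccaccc
Add2: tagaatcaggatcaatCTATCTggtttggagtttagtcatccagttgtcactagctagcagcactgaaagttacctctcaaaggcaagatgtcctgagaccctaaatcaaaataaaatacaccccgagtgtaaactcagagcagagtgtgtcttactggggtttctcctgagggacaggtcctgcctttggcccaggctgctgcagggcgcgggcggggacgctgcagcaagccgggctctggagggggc
The *Kel* promoter held 1 AGATAA that begins 56 bases before the start and 1 TGATAA that begins 19 bases before it. The *Add2* promoter held 1 match, CTATCT, which is AGATAG on the other strand and begins 234 bases before the start. Over the same 250 bases of 32851 promoters in the table, 9.99% held AGATAA, 7.94% TGATAA, 7.71% AGATAG and 6.35% TGATAG, and 26.5% held at least 1 of these motifs. CACCC, the core of sites for Kruppel-like factors, was found once in each promoter (52.0% of promoters), and the E-box CAGNTG once in that of *Add2* only (44.8% of promoters). All motifs were searched on both strands, none of these matches overlapped another, and a match is a description of letters, not of binding.

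The transporter of the membrane and the Kell glycoprotein had the lowest ratios of the members. Probe 19252 of *Slc4a1* ranged from -2.50 on replicate 8 over a median of -1.08 to -0.62 on replicate 1. It was thus below 0 on 12 of 12 arrays, with a mean log2 ratio of -1.26 (SD 0.57, n = 12 arrays), or 41.8% of the wild type pool. Probe 5305 of *Kel* ranged from -1.92 on replicate 7 over a median of -1.18 to -0.52 on replicate 2. It was likewise below 0 on 12 of 12 arrays, with a mean of -1.14 (SD 0.43, n = 12) or 45.2% of the pool. The spread of *Slc4a1* over the arrays was larger than that of 72.4% of all probes tested, and that of *Kel* larger than that of 54.3%.

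The probes of the skeleton genes *Ank1* and *Add2* that lay below 0 on every array did so by less. Probe 3336 of *Add2* ranged from -1.53 on replicate 7 over a median of -0.60 to -0.03 on replicate 10, with a mean of -0.71 (SD 0.48, n = 12). Probe 19646 of the same gene ranged from -1.05 on replicate 8 over a median of -0.73 to -0.24 on replicate 9, with a mean of -0.65 (SD 0.29, n = 12). Both *Add2* probes were below 0 on 12 of 12 arrays and their means correspond to 61.0% and 63.7% of the pool. For *Ank1*, probe 15419 ranged from -1.51 on replicate 7 over a median of -0.49 to -0.07 on replicate 1. It was below 0 on 12 of 12 arrays, with a mean of -0.65 (SD 0.46, n = 12), or 63.9% of the pool.

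The other *Ank1* probes did not share this pattern. Probe 17722 lay below 0 on 11 of 12 arrays with a mean of -0.33 (SD 0.32, n = 12), and probe 4430 lay below 0 on 9 of 12 with a mean of -0.19 (SD 0.93, n = 12), between -1.89 on replicate 1 and 1.79 on replicate 3. Probe 3650 had a value on 9 arrays only, 7 of them above 0. One of its values, -16.57 on replicate 10, belongs to the 480 values of the table that lie beyond 8 in size. It draws the fitted log2 ratio of this probe to -1.05, while the median of its other 8 values was 1.03 (SD 1.19). Where in the *Ank1* transcript each probe lies is not given in the sources used here, and *Ank1* has many annotated transcripts. A statement on *Ank1* therefore rests on 1 of its 4 probes, whereas both probes of *Add2* had a similar mean.

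**Figure D1:**
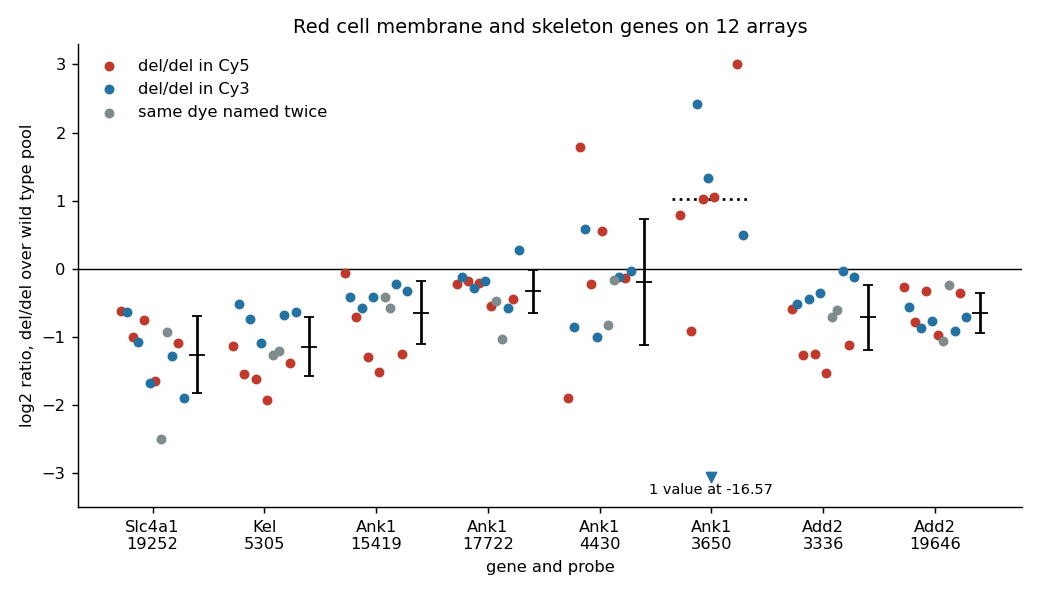
Log2 ratio of del/del over the wild type pool (vertical axis) for each of the 8 probes (horizontal axis), 1 point per array, coloured by the dye of the del/del RNA; black bars are mean and SD over 12 arrays. For probe 3650 the dotted line is the median of its 9 values and the triangle stands for the value of -16.57, which lies off the axis. Probes 19252, 5305, 15419, 3336 and 19646 are below 0 on every array.

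The limma fit covered the 20516 probes measured on 8 or more arrays. A probe passed if its p after Benjamini-Hochberg adjustment was under 0.05 and its ratio differed by more than 1.3-fold, which is 0.38 on the log2 scale. Of the 8 member probes 5 passed as lower, namely 19252 of *Slc4a1*, 5305 of *Kel*, 15419 of *Ank1* and 3336 and 19646 of *Add2*, and 0 as higher. Of all probes tested 0.907% passed as lower and 0.166% as higher, or 1.07% in either direction. The same 5 probes were below 0 on all 12 arrays, as were 0.87% of the probes with 12 values. The genes were chosen from this contrast, so nothing is read from these shares. Of the probes that passed, 15419 of *Ank1* and 19646 of *Add2* were nearest to the limit, both with -0.65, and of those that did not, probe 17722 of *Ank1* with -0.33. When consecutive arrays were averaged as presumed pairs of 1 yolk sac, probe 15419 lost its call and 4 member probes passed. When an array whose partner had no value was also kept, 1 member probe passed, that of *Kel*. With limma's robust and trend options together no probe of the table passed. That trend was fitted to each probe's mean log2 ratio, since no spot intensities were at hand.

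Whether a ratio depended on which dye carried the del/del RNA was not used in choosing the genes, and it was tested with the dye term of the same fit. For probe 5305 of *Kel* the mean log2 ratio was -1.52 (SD 0.29, n = 5) with del/del in Cy5 and -0.73 (SD 0.22, n = 5) with del/del in Cy3, a difference of -0.78 (adjusted p = 0.0183 for the dye term, limma). For probe 3336 of *Add2* the means were -1.15 (SD 0.35, n = 5) with del/del in Cy5 and -0.29 (SD 0.21, n = 5) with del/del in Cy3, a difference of -0.86 (adjusted p = 0.018 for the dye term, limma). These were 2 of the 8 member probes, against 12.2% of all probes tested with a dye term past an adjusted p of 0.05. The size of the fall of *Kel* and of this *Add2* probe thus differed between the orientations by more than the spread between arrays, with every array of either orientation below 0.

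For the remaining probes past the threshold the dye term did not pass. Probe 15419 of *Ank1* had a mean log2 ratio of -0.97 (SD 0.59, n = 5) with del/del in Cy5 and -0.39 (SD 0.13, n = 5) in Cy3 (adjusted p = 0.123, limma). *Slc4a1* had -1.02 (SD 0.39, n = 5) with del/del in Cy5 and -1.31 (SD 0.49, n = 5) in Cy3 (adjusted p = 0.583, limma), and probe 19646 of *Add2* had -0.54 (SD 0.32, n = 5) in Cy5 and -0.76 (SD 0.14, n = 5) in Cy3 (adjusted p = 0.43, limma). The 2 probes of *Add2* thus leaned in opposite directions. The ratio of probe 3336 minus that of probe 19646 on the same array averaged -0.62 on Cy5-labelled del/del arrays and 0.47 on Cy3-labelled ones, 5 of each. This difference between orientations of -1.08 had p = 0.00794 in a two-sided exact permutation test over 252 splits of the 10 arrays, the smallest p they can give. The pair was picked with its values already known. The splits also treat the 10 arrays as independent, although some presumably come from the same yolk sac. Over all 12 arrays the difference between the probes averaged -0.06 (SD 0.59), so the mean ratio of *Add2* over both orientations was alike by either probe, while the ratio in 1 orientation was not.

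**Figure D2:**
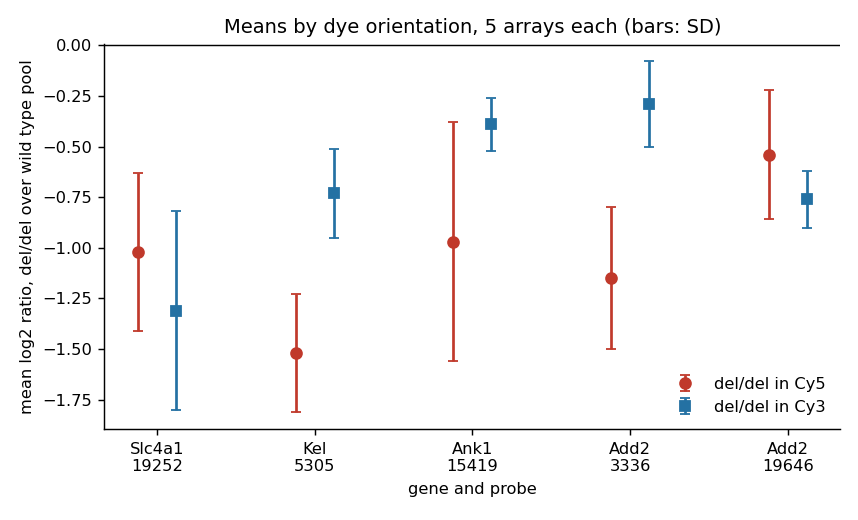
Mean log2 ratio of del/del over the wild type pool (vertical axis) for the 5 member probes past the threshold (horizontal axis), for Cy5-labelled and Cy3-labelled del/del RNA, 5 arrays each; bars are SD over arrays. *Kel* and probe 3336 of *Add2* lie lower with del/del in Cy5, at -1.52 and -1.15, than in Cy3, at -0.73 and -0.29.

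Consecutive replicate numbers alternate between odd arrays, whose del/del channel is named Cy5, and even arrays, whose del/del channel is named Cy3, and were read as the presumed pairs of 1 yolk sac. *Kel* and probe 3336 of *Add2* were lower on the odd array in 6 of 6 such pairs, and probe 15419 of *Ank1* in 5 of 6, the exception being replicates 1 and 2. *Slc4a1* and probe 19646 of *Add2* were lower on the even array in 6 of 6 pairs. The lowest value of each of these 5 probes lay on replicate 7 or 8, and so did the lowest pair mean. For *Slc4a1* the mean of replicates 7 and 8 was -2.07, and the pair means of the other arrays lay between -1.49 and -0.63. For *Kel* the mean of replicates 7 and 8 was -1.59, and the other pair means lay between -1.35 and -0.83. Replicates 1 and 2 had the highest pair mean for 4 of the 5 probes, and replicates 9 and 10 for probe 3336 of *Add2*, at -0.31. With replicates 7 and 8 left out, the log2 ratio was -1.07 for *Slc4a1*, -1.09 for *Kel*, -0.61 for probe 15419 of *Ank1* and -0.67 and -0.56 for the *Add2* probes, and 5 member probes still passed.

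**Figure D3:**
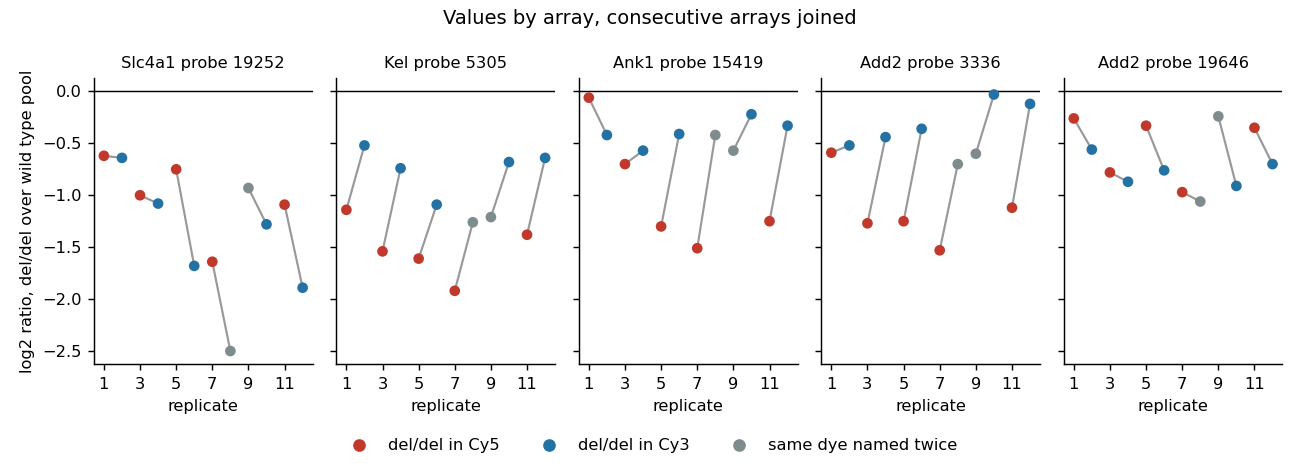
Log2 ratio of del/del over the wild type pool (vertical axis) by replicate number (horizontal axis) for the 5 member probes past the threshold, with consecutive arrays joined and points coloured by the dye of the del/del RNA. *Slc4a1* and probe 19646 of *Add2* fall from odd to even array in 6 of 6 pairs, and *Kel* and probe 3336 of *Add2* rise in 6 of 6.

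Before the dye term was removed, the members' profiles over the arrays split along the same line. Over the 12 arrays, which share the wild type pool and presumably yolk sacs, the ratios of *Kel* and probe 3336 of *Add2* correlated with Pearson's r of 0.90, those of *Slc4a1* and probe 19646 of *Add2* with 0.71, and those of *Slc4a1* and *Kel* with 0.06, given as a description. Once the mean and the dye term of the fit were removed, the r of *Slc4a1* and *Kel* was 0.54 and that of both *Add2* probes 0.43. *Slc4a1* still had an r of 0.12 with probe 15419 of *Ank1* and of 0.13 with probe 3336 of *Add2*, and probe 15419 of *Ank1* had 0.21 with probe 19646 of *Add2*. *Kel* and probe 19646 of *Add2*, also on different sides of that line, went from -0.06 to 0.54. Probe 15419 of *Ank1* and probe 3336 of *Add2*, on the same side, had 0.80. With the dye of replicates 8 and 9 taken from the label of their del/del channel the r of *Slc4a1* and *Kel* was 0.74 and that of both *Add2* probes 0.63. The pairs with 0.12, 0.13 and 0.21 then had 0.29, 0.36 and 0.40. *Kel* and probe 19646 of *Add2* had 0.75, and probe 15419 of *Ank1* and probe 3336 of *Add2* had 0.77.

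The probes with 1 gene symbol whose deviations from the fit were most like those of *Slc4a1* over 12 arrays were 19852 of *Krt16*, a keratin gene, and 19752 of *Hba-a1*, the adult alpha-globin gene, each with r = 0.94. Probe 15423 of *Hba-a1* and probe 15351 of the amino acid transporter gene *Slc43a2* followed with 0.93, and probe 19781 of *Pabpc1*, the poly(A) binding protein gene, with 0.92. With the dye of replicates 8 and 9 taken from the del/del channel, 4 of these 5 probes were again among the closest 5. For *Kel* the closest 5 had 0 probes in common between the dye codes. With the dye code 0 the closest to *Kel* was probe 6627 of *Lfng*, a modifier of Notch receptors, with r = 0.89 and a log2 ratio of 0.12. With the label of the del/del channel they were probes of *Cd300lf*, *Cdca8*, *Ucma*, *Uhrf1bp1l* and *Hba-a1*, with r between 0.91 and 0.96, and 5 of 5 had passed as lower. The closest probe to the mean profile of the 5 member probes was 20108 of *Ucma*, a cartilage matrix gene, under either code (r = 0.93 and 0.94), with a log2 ratio of -1.28. For probe 15419 of *Ank1*, 0 of the closest 5 had passed under either code, led by *Nubp1* with r = 0.93 and a log2 ratio of -0.11. Closest to probe 3336 of *Add2* was *Klk1b8*, a kallikrein gene, with r = 0.94 and a log2 ratio of 0.03, and to probe 19646 *Tmprss4*, a membrane serine protease gene, with r = 0.92 and a log2 ratio of -0.79.

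Other genes of the red cell membrane and its skeleton were taken from a fixed list of 36, of which 26 were measured by 36 probes. At least 1 probe passed as lower for 5 of these genes, against 1.32% of all genes with a symbol, and 0 passed as higher, against 0.335% of all genes. By unadjusted p under 0.05, with the same limit on the fold, 6 genes were lower and 0 higher. Among all 20516 probes tested, 554 met these limits, a count of probes and not of genes. The median log2 ratio of the 36 probes was -0.08, against -0.00 over all probes. That of the 8 member probes was -0.68, with probe 3650 of *Ank1* counted at its fitted -1.05. The members were chosen from this contrast, so nothing is read from their median. Beta-spectrin, *Sptb*, the partner of ankyrin, fell by 0.61 on the log2 scale by probe 15496 (SD 0.35, adjusted p = 0.00241 in limma) and was lower on 12 of 12 arrays. Its probe 2412 had -0.31, lower on 12 of 12 arrays but short of the change required (adjusted p = 0.0433 from limma), and its probe 5295 had 0.23 (adjusted p = 0.521 from limma). *Rhd*, the Rh blood group gene, fell to a log2 ratio of -1.30 (SD 0.60, adjusted p = 0.00128 in limma), with its 12 values between -2.60 on replicate 7 and -0.40, all below 0. With consecutive arrays averaged neither *Sptb* nor *Rhd* passed.

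Transporters and surface proteins of the red cell made up the other calls. *Slc29a1*, a nucleoside transporter, fell by 0.65 on the log2 scale by probe 6571 on 12 of 12 arrays (SD 0.30, adjusted p = 0.00098 in limma), while its probe 16190 had -0.06 and did not pass. *Art4*, which carries the Dombrock blood group in humans, fell by 0.50 and was below 0 on 10 of 12 arrays (SD 0.36, adjusted p = 0.00216 in limma). Its mean was -0.78 with del/del in Cy5 and -0.16 in Cy3, and its dye term passed (adjusted p = 0.0286 from limma). *Kcnn4*, the calcium-activated potassium channel of red cells, fell by 0.42 according to probe 4222, which was below 0 on 12 of 12 arrays (SD 0.33, adjusted p = 0.0377 in limma), and its probe 5229 had -0.19. This call was lost without any 1 of replicates 2 to 12, and with consecutive arrays averaged.

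Most of the list did not pass. *Tpm1*, a tropomyosin, had a log2 ratio of 0.32 by probe 2868 (adjusted p = 0.0722 from limma), and *Icam4*, an adhesion protein of red cells, had -0.47 (adjusted p = 0.274 from limma). *Actb*, beta-actin, had 0.19 by probe 11376 (adjusted p = 0.29 from limma). *Xk*, whose product is bound to the Kell glycoprotein, had a log2 ratio of -0.47 with an SD of 1.48 over 12 arrays, and a value of -4.83 on 1 of them. *Dmtn*, the actin-bundling protein dematin, had -0.02 (SD 0.69), and *Tmod1*, tropomodulin, which caps the other end of the actin filament, had -0.11 (SD 0.28). In the plot of the list, the 5 probes past the threshold lie at -1.30, -0.65, -0.61, -0.50 and -0.42.

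Among the paralogs of the 4 genes no probe passed the threshold. Of 17 listed paralogs 11 were measured, by 21 probes with a median log2 ratio of -0.05. In limma 0 of these 11 genes passed, which is near the shares over all genes, 1.32% as lower and 0.335% as higher. By unadjusted p under 0.05, with the same limit on the fold, 1 was lower and 0 higher, beside the 554 of 20516 probes given above. Beside the -1.26 of *Slc4a1*, the anion exchanger gene *Slc4a2* had 0.05 (SD 0.19, n = 12) and the bicarbonate transporter gene *Slc4a8* 0.18 (SD 0.29, n = 12). Beside the *Ank1* probes, 2 probes of *Ank2* had -0.05 and -0.06, and 5 probes of *Ank3* lay between -0.23 and 0.08. Beside the *Add2* probes, alpha-adducin, *Add1*, the subunit that pairs with beta-adducin in red cells, had -0.18 and -0.04, and gamma-adducin, *Add3*, had 0.02 (SD 0.44, n = 12). The relatives of *Kel* among the endopeptidases included *Ece1*, whose 4 probes lay between -0.61 and -0.03, *Mme*, with -0.18 and -0.20, *Ecel1*, with 0.08, and *Mmel1*, with 0.02. The *Ece2* probe had values on 8 arrays, 6 of them below 0, with a median of -0.68, and 2 of them were beyond 8 in size. Probe 9717 of *Ece1*, at -0.61 with an SD of 1.24, lay near the mean ratios of *Add2* and of probe 15419 of *Ank1*, but its median was -0.04. The median of *Ece2* also lay near those means, with its 2 values beyond 8 counted. Both probes had a wider spread. The difference between a member and its paralog was not tested. Of the spectrin skeleton of other cells 7 genes were measured by 9 probes, with a median of 0.01, and 0 passed in limma, 0 also by unadjusted p under 0.05. In a list this short, 0 is near the share over all genes.

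**Figure D4:**
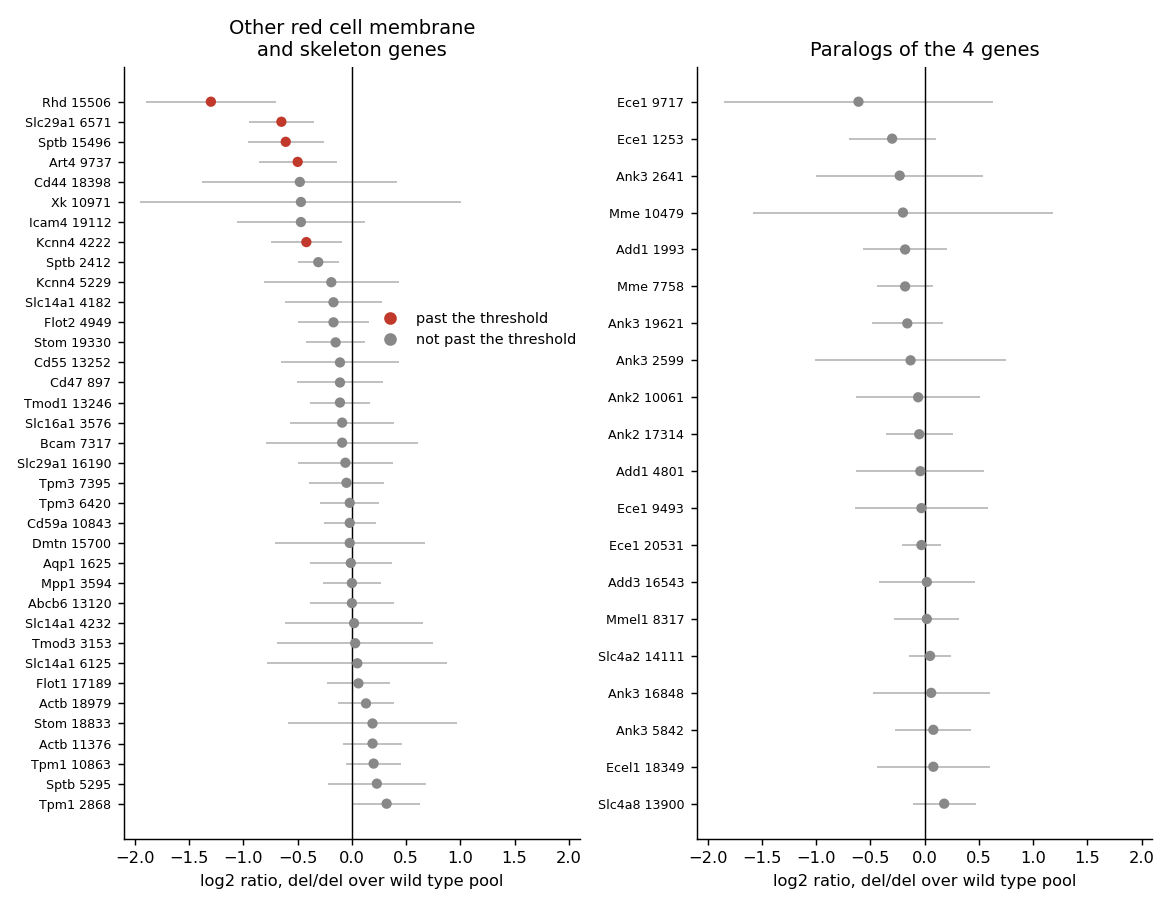
Log2 ratio of del/del over the wild type pool (horizontal axis) for the probes (vertical axis, gene and probe) of other red cell membrane and skeleton genes (left) and of the paralogs (right), as fitted value and SD over arrays; 1 *Ece2* probe with values beyond 8 in size is not drawn. On the left 5 probes in red passed the threshold, from *Rhd* at -1.30 to *Kcnn4* at -0.42, and on the right 0 passed.

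Other contents of the red cell had ratios on both sides of those of the members. The 7 probes of the globin genes *Hba-a1* and *Hba-x* lay between -1.48 and -0.91 with a median of -1.34, and the 7 probes of heme synthesis between -1.15 and -0.00 with a median of -0.26. At least 1 probe passed as lower for both globin genes and for 2 of 6 heme synthesis genes, *Alas2* and *Fech*, against 1.32% of all genes. Probe 13438 of *Fech*, at -0.32, did not pass. Deviations of *Slc4a1* followed the mean of the globin probes with r = 0.93, those of *Kel* with 0.69, those of the *Add2* probes 3336 and 19646 with 0.34 and 0.64, and those of probe 15419 of *Ank1* with 0.35 (n = 12 arrays, a description). Of 13 measured genes among erythroid regulators and enzymes 5 fell, *Gata1*, *Tal1*, *Nfe2*, *Zfpm1* and *Car2*, each by at least 1 probe, against the 1.32% of all genes given above. A further probe of *Tal1*, 2643, had -0.00 (adjusted p = 0.996 in limma) and 1 of *Zfpm1*, 9080, had 0.15 (adjusted p = 0.695 in limma). Lists for other cells of the yolk sac were read in the same way. Of 14 endothelial genes 0 passed in limma (median log2 ratio -0.08), and of 15 visceral endoderm genes 0 passed (median 0.03). By unadjusted p under 0.05 and the limit on the fold, 0 endothelial genes and 1 visceral endoderm gene were lower, and 0 of either were higher. These stand beside the 554 of 20516 probes given above. In lists this short, a count of 0 in limma is near the share over all genes. Of 9 genes of mesenchyme and smooth muscle 3 fell, of 7 of macrophages 2, and of 6 of megakaryocytes 1, with medians of -0.34, -0.26 and -0.17. These counts also stand beside the 1.32% of all genes. What part these other cells have in the ratios of the 4 genes was not tested.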

How the data were processed

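Yolk sac RNA of *Prdm6* del/del embryos and a wild type pool was labelled with Cy3 or Cy5 and hybridized to 2-colour cDNA arrays. The labels describe indirect labelling of total RNA, whereas the study's methods describe an amplification. The authors deposited 1 normalized log2 ratio per probe and array. The normalization, background correction and software are not given in the sources used here. Scale and direction were taken from the signed mean ratios that the study lists for these arrays, and a positive value means higher in del/del whichever dye was used. The values were used as deposited.

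In the array's annotation, the source of gene symbols, 12771 probes have 1 symbol, 0 several and 8023 none. Probes measured on 8 or more arrays were tested in limma 3.58.1 (lmFit, eBayes; R 4.3.3) for a mean log2 ratio other than 0, beside a dye coefficient (1 for del/del in Cy5, -1 for Cy3, 0 for replicates 8 and 9). The thresholds, 0.05 for the adjusted p and 1.3-fold for the change, are those of the study's methods. The fit was tested on simulated data with independent arrays, which cannot show how shared yolk sacs or the shared pool affect the p-values. Motifs were searched in Python 3.11.15.

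The 4 genes, the lists and the tests were chosen with earlier results of these data known. All member probes are named. Other names were drawn from the membrane list (probes past the threshold and the 4 next by p), the 2 probes with the smallest p of each further list, and the 5 probes whose deviations were most like those of each member probe past the threshold or of their mean, and not all of these are printed. The remaining paralogs, *Xk*, *Dmtn*, *Tmod1*, further probes of a gene, and further genes counted as lower were named after their values were seen. No further normalization or filter was applied, and alternatives covered the dye term, centring and scaling, missing and extreme values, pairs of arrays, moderation, fold threshold and each array left out.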

Additional observations from a re-analysis of the deposited data

How the results depend on the processing

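Each value is already a ratio of del/del over the wild type pool on the same array. The labels do not say which arrays form the dye-flip pair of 1 yolk sac. Presumed pairs of arrays within del/del were therefore averaged or entered as a random block. With consecutive arrays averaged as presumed pairs, 113 instead of 220 probes passed over the whole table, 4 instead of 5 member probes and 2 instead of 5 other membrane genes (*Slc29a1* and *Art4*). When a lone array was kept where the other of a pair had no value, chosen after the data were seen, 38 probes, 1 member probe (*Kel*) and 0 other membrane genes passed. With the robust and the trend option of limma combined, 0 probes passed over the whole table, 0 member probes, 0 other membrane genes, and 0 dye terms of member probes, and the cause was not tested. The trend of variance was fitted to each probe's mean log2 ratio, the quantity under test, and not to spot intensity. With either option alone, also chosen later, 5 member probes passed. With a change over 1.5-fold, 132 probes and 3 other membrane genes passed. With each array left out in turn, 163 to 214 probes passed over the whole table, 5 member probes each time, 4 to 5 other membrane genes, 0 paralogs, and 2 to 3 dye terms. The remaining alternatives, namely no dye term, other dyes for replicates 8 and 9, the 10 arrays with clear dyes, centring, scaling, other minimums of arrays, extreme values as missing, pairs as a random block, and no fold threshold, left 5 member probes past the threshold, with *Slc4a1* between -1.26 and -1.17 and *Kel* between -1.14 and -1.13. The 6 yolk sacs behind the 12 arrays and the single pool limit the precision, and signal over background is not known.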
